A study of Mus musculus with 33 samples.

Results

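Loss of a single arginine tRNA gene was examined for its effect on how heavily messages were occupied by ribosomes in mouse hippocampus. The contrast took the log2 difference in ribosome footprints between n-Tr20 -/- (B6N_nTr20_del) and wild-type (B6N) hippocampus and subtracted the log2 difference in mRNA, so that a value above 0 means more footprints per mRNA in the knockout. It used the 12 hippocampus libraries of the 33 samples in the series. These were 3 poly(A) RNA and 3 footprint libraries of B6N and 3 of each from the knockout, all from C57BL/6NJ mice at 8 weeks of age. Both genotypes share that strain, and no other allele or agent is named in the labels. RNA libraries are numbered here as batch 3 and footprint libraries as batch 4, so assay and batch cannot be told apart. Both genotypes were in each assay. The hippocampus titles name no batch, so a split of the genotypes within an assay cannot be checked. The column headers of all 12 files name B6JN in place of B6N, so the strain is given here as labelled. The labels do not say whether the libraries of a group came from separate mice, and p-values measure the spread between these libraries only.

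Ribosome profiling sequences the short RNA pieces that a translating ribosome shields from nuclease, and their number per mRNA is called translational efficiency. The tRNA n-Tr20 is an arginine tRNA with the anticodon UCU, made mainly in neurons, that decodes AGA codons. Its loss is known to leave ribosomes waiting at AGA codons and to activate the integrated stress response, in which phosphorylation of the initiation factor eIF2 alpha lowers initiation on most mRNAs and raises it on a few with upstream reading frames. The best known of these is Atf4, whose protein then raises transcription of genes for amino acid synthesis, amino acid transport and tRNA charging. A footprint ratio also counts ribosomes that wait, so it is occupancy and not protein output.

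Total counts were 41051208 to 49535255 per B6N RNA library, 35825476 to 60426608 per knockout RNA library, 9072583 to 11208310 per B6N footprint library and 7616107 to 17896587 per knockout footprint library. Footprint library knockout 1 was the deepest and stood apart: its mean correlation with its group across genes was 0.968, against 0.975 to 0.983 for the other footprint libraries, and it had the lowest quality weight, 0.295. RNA library knockout 1 held Xist at 1225 CPM (counts scaled to a common library size) and the Y-linked Ddx3y at 0.347 CPM, while footprint library knockout 1 held Ddx3y at 45.4 CPM, so these libraries did not hold the same single mouse. In the other RNA libraries Xist was 0.237 to 2.32 CPM and Ddx3y 47.2 to 57.8 CPM. By these genes the knockout RNA group was of mixed sex, while the B6N RNA libraries all had the male pattern. In footprint library knockout 1 all 4 Y-linked genes measured were below every other footprint library (Ddx3y 67.1 to 107 CPM there, and Uty 14.5 CPM against 25.4 to 33.6 CPM). The tRNA itself was not analysed here, and the knockout label has no direct check in these gene counts. Hippocampal markers were present in every group, with summed CA1 to CA3 pyramidal cell markers at 1878 to 2226 CPM in RNA and 1404 to 1769 CPM in footprints. Choroid plexus markers, from a tissue that lies against the hippocampus, varied widely within groups and are given with the cell type markers.

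Most calls between the genotypes were made in the footprints. Of 15202 genes tested, 1614 (10.6%) changed in footprints, 681 up (4.48%) and 933 down (6.14%), while 13 (0.0855%) changed in RNA, 8 up (0.0526%) and 5 down (0.0329%), at an adjusted p under 0.05 in edgeR's quasi-likelihood test. In the counts of genes below, rose, fell and changed mean passing this threshold. No gene (0%) passed for the ratio in edgeR, the smallest adjusted p being 0.0531. An unadjusted p under 0.05 was found for 2261 genes (14.9%), 944 with a higher ratio in the knockout (6.21%) and 1317 with a lower one (8.66%). DESeq2 called 486 genes for the ratio, 150 higher and 336 lower, and limma voom called 2. Across genes the log2 differences had an SD of 0.71 in footprints and 0.27 in RNA, and their Pearson correlation was 0.064 (Spearman 0.171), the points being genes that share the same 12 libraries. These figures include genes near 0 in footprints, such as Cldn14 at 0 to 0.23 CPM, and the footprint libraries were shallower than the RNA libraries. The part of counting noise in the SD and the correlation was not tested. Of the 1614 genes called in footprints, 1602 had a ratio difference of the same sign, which contains the footprint difference, and 1190 of them also had an unadjusted p under 0.05 for the ratio. Knockout footprint libraries lay all above B6N for 11.6% of genes and all below for 12.9%, against 7.6% and 7.3% in RNA.

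Atf4 (ENSMUSG00000042406.8), the transcription factor at the centre of the stress response, gained both mRNA and footprints. Footprints were 12.9, 15.5 and 18.9 CPM in the B6N libraries and 39.1, 46.8 and 38.0 CPM in the knockout libraries. RNA was 88.6, 76.6 and 83.6 CPM in B6N and 125, 135 and 132 CPM in the knockout. The genotypes did not overlap in either assay. Footprints rose by 1.38 ± 0.13 on the log2 scale (SE, n = 3 per group; adjusted p = 0.000118, edgeR), which is 2.602-fold, and RNA by 0.66 ± 0.11 (adjusted p = 0.0259, edgeR). The ratio difference was 0.72 ± 0.16, or 1.65-fold, with an unadjusted p of 0.000541 that did not pass after adjustment over all genes (adjusted p = 0.0870, edgeR). It was above 0 in all 24 alternative fits, from 0.59 to 0.88, and passed in 1 of them, DESeq2, at an adjusted p of 0.00275. The footprint rise passed in all 13 fits that left libraries out. The RNA rise passed in 6 of those 13, and was lost without any one of the RNA libraries or without footprint B6N 2, with adjusted p up to 0.280.

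**Figure D1:**
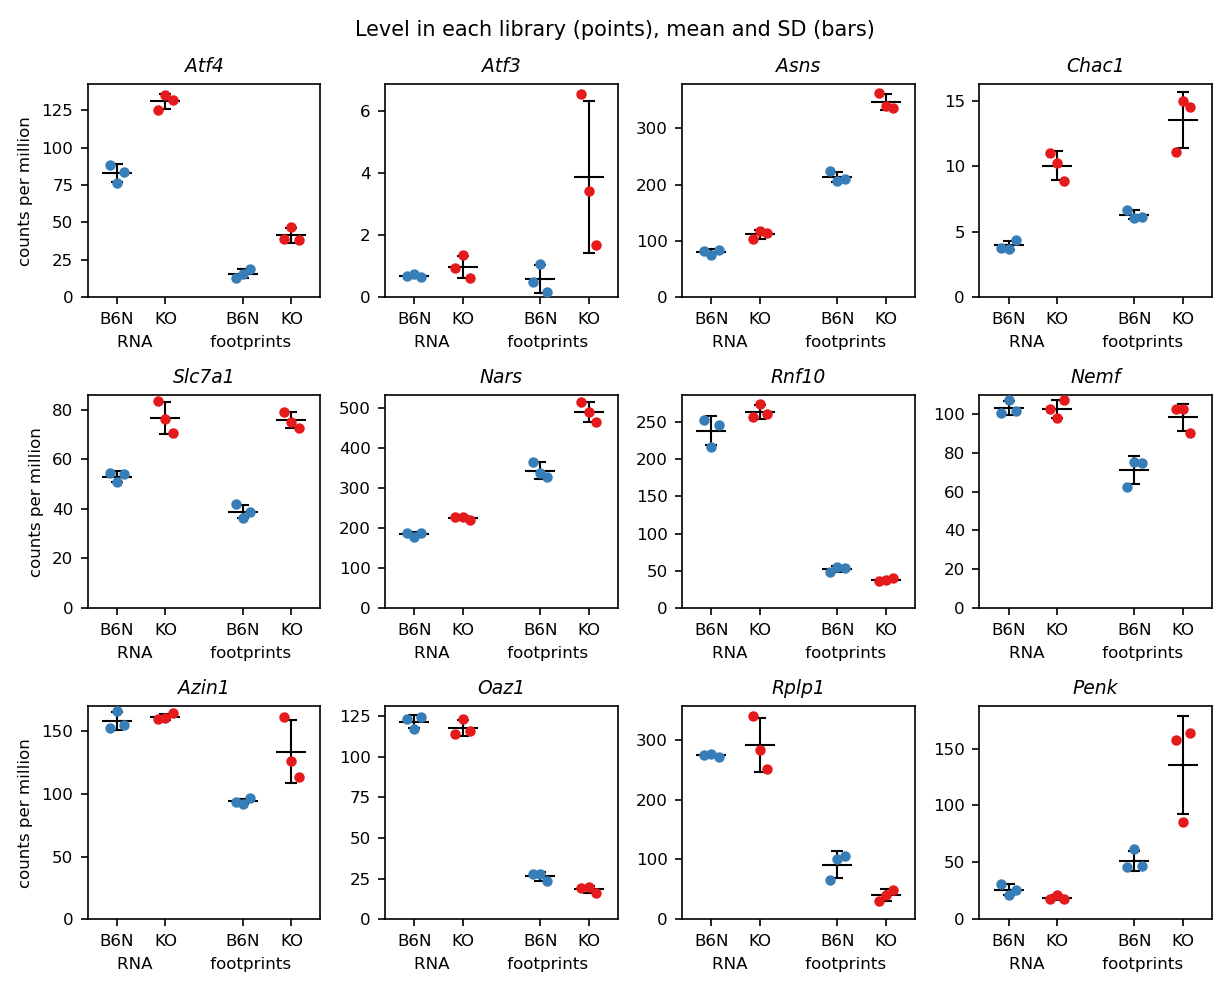
CPM in each RNA and footprint library of B6N and knockout (KO) hippocampus for 12 genes, with points for libraries and black bars for the mean and SD of 3. Atf4, Asns, Chac1, Slc7a1 and Nars sit higher in KO in both assays. In footprints Rnf10, Oaz1 and Rplp1 sit lower and Nemf, Azin1, Atf3 and Penk higher in KO, while the RNA of these genes other than Rnf10 overlaps.

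Of the 42 genes tested that are known as ATF4 targets or parts of the stress response, 15 rose in footprints (35.7%) and none fell. Over all genes 4.48% rose and 6.14% fell in footprints. In RNA 6 rose and none fell, against 0.0526% and 0.0329% of all genes. None passed for the ratio. At an unadjusted p under 0.05, 7 had a higher ratio (16.7%) and 2 a lower one (4.76%), against 6.21% and 8.66% of all genes. The median log2 difference of the list was 0.30 in footprints, 0.26 in RNA and 0.04 in the ratio, against 0.00, 0.00 and -0.01 over all genes tested. Without footprint knockout 1, 13 members rose in footprints and 6 in RNA, and without knockout 1 in both assays 11 and 4. The rises of Vldlr, a lipoprotein receptor (0.22), and Aldh1l2, a mitochondrial folate enzyme (0.66), passed in 1 and 0 of the 13 fits with libraries left out. Fgf21 and Soat2 were not tested because their counts were too low.

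Several targets of ATF4 rose about as much in footprints as in RNA. Mthfd2, a mitochondrial folate enzyme, was at 6.88, 7.79 and 7.47 CPM in B6N footprints and 16.3, 17.1 and 14.9 CPM in knockout footprints, and at 5.03, 6.05 and 5.32 CPM in B6N RNA and 12.9, 12.3 and 12.2 CPM in knockout RNA. It rose by 1.12 in footprints and 1.19 in RNA on the log2 scale, and the ratio difference was -0.07 ± 0.19 (SE). Chac1, which degrades glutathione, was at 6.69, 6.06 and 6.14 CPM in B6N footprints and 11.1, 14.98 and 14.5 CPM in the knockout, with RNA at 3.78, 3.71 and 4.36 CPM and 11.1, 10.2 and 8.85 CPM. No knockout library of Mthfd2 or Chac1 reached down to a B6N library. Chac1 rose by 1.09 in footprints and 1.35 in RNA, with a ratio difference of -0.25 ± 0.23. Both RNA rises passed in all 13 fits with libraries left out. Slc7a3, a transporter of arginine and other cationic amino acids, rose by 1.65 in footprints and 1.63 in RNA, with a ratio difference of 0.02 ± 0.33 whose sign turned in 6 of 24 alternative fits. Its RNA rise was lost without any one B6N RNA library, RNA knockout 3 or knockout 1 in both assays.

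Other members had a larger difference in footprints than in RNA. Slc7a1, the main transporter of arginine in most cells, was at 41.8, 36.4 and 38.6 CPM in B6N footprints and 79.2, 75.0 and 72.8 CPM in knockout footprints, and at 54.5, 50.6 and 54.0 CPM in B6N RNA and 83.3, 76.1 and 70.6 CPM in knockout RNA. The rise was 0.96 ± 0.09 in footprints and 0.53 ± 0.08 in RNA, and the ratio difference was 0.43 ± 0.12 (unadjusted p = 0.00249, adjusted p = 0.127 in edgeR). Asns, the asparagine synthetase, rose by 0.70 ± 0.07 in footprints and 0.47 ± 0.07 in RNA, with a ratio difference of 0.23 ± 0.10 (adjusted p = 0.309, edgeR). The RNA rises of Slc7a1 and Asns passed in 7 and 8 of the 13 fits with libraries left out, being lost without any one B6N RNA library and RNA knockout 2 (for Slc7a1 also RNA knockout 1 or knockout 1 in both assays, for Asns also RNA knockout 3), while their footprint rises passed in all 13. Herpud1, of the degradation pathway of the endoplasmic reticulum, rose by 0.51 in footprints, with 0.20 in RNA. Atf3, a stress transcription factor, was scarce, with 5, 10 and 2 footprint counts in B6N and 114, 26 and 14 in the knockout, against 27, 36 and 26 RNA counts in B6N and 55, 55 and 22 in the knockout. Its footprints rose by 2.82 ± 0.58 (adjusted p = 0.00892, edgeR), a rise that was lost without knockout 1 in both assays (adjusted p = 0.0612).

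Of the list, 14 of 42 ratios were below 0, the lowest at -1.76, and the members with an unadjusted p under 0.05 were Ddit4, a stress-induced inhibitor of mTORC1, and Cebpb, a C/EBP transcription factor. Neither passed after adjustment. Ddit4 footprints were 86.1, 104 and 98.2 CPM in B6N and 81.2, 80.0 and 74.8 CPM in the knockout, and RNA was 39.6, 44.5 and 36.4 CPM and 50.6, 46.3 and 43.6 CPM. Knockout footprints all lay below B6N while RNA overlapped. The ratio difference was -0.51 ± 0.13 (unadjusted p = 0.00172, adjusted p = 0.119 in edgeR). For Cebpb it was -0.76 (unadjusted p = 0.0272).

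**Figure D2:**
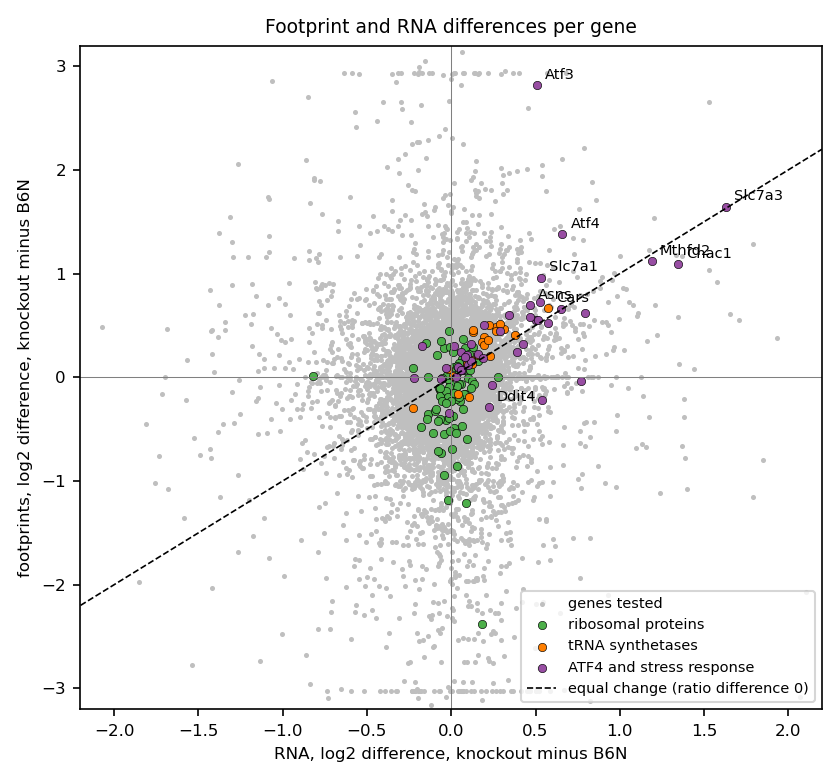
Log2 difference between knockout and B6N in footprints (vertical) against RNA (horizontal) for each gene tested, with ribosomal protein, tRNA synthetase and stress response genes in colour; 165 genes lie outside the plotted range. Mthfd2, Chac1 and Slc7a3 lie near the dashed line of equal change, Atf4 above it, Ddit4 below it, and the ribosomal protein genes spread vertically near an RNA difference of 0.

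The stretches around the ATF4 motif in promoters of members whose footprints rose are shown because these genes were called together in footprints and ATF4 is known to act through this motif. ATF4 with a C/EBP partner is known to bind the letters TGATGNAA (N, any base), searched here on both strands of the RefSeq windows of GRCm38.p6 from 250 bases before to 50 after each annotated start. At least 1 match was in 13 of 47 windows of 37 stress list genes (27.7%) and in 5 of 17 windows of 16 synthetase genes (29.4%), against 1304 of 32851 windows of all genes (3.97%). Of the members with raised footprints and a window, 5 of 12 stress genes and 4 of 6 synthetases had a match. The stress list was drawn from known ATF4 targets, and ATF4 is known to raise genes for tRNA charging. A share above that of all windows was thus built into the choice of lists and is no result of these libraries. Members whose footprints did not rise were not counted apart. Capitals mark the match, read on the strand of the gene.
Atf3: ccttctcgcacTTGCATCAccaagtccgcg
Chac1: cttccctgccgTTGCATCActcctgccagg
Asns: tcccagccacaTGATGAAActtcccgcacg
Vldlr: agcagcaatagTTGCATCAgcgctcctagc
Herpud1: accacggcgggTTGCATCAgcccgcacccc
In that order these lie upstream of the start at chr1:191183425-191183454 (minus strand), chr2:119351038-119351067 (plus), chr6:7693214-7693243 (minus), chr19:27216809-27216838 (plus) and chr8:94386306-94386335 (plus). The capitals of Atf3, Chac1, Vldlr and Herpud1 hold one and the same run, the motif on the other strand with C at the open base, and Asns holds the variant with an A there. Vldlr had a second window with no match. No match was found in the windows of Atf4, Slc7a1, Mthfd2, Sesn2, Slc3a2, Psph and Aldh18a1.

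Cytosolic aminoacyl-tRNA synthetases, the enzymes that charge tRNAs, moved together in footprints. Of 23, 13 rose in footprints (56.5%) and 1 fell (Hars, 4.35%), against 4.48% and 6.14% of all genes. In RNA 1 rose (Cars), against 0.0526% of all genes. The median log2 difference was 0.34 in footprints, 0.18 in RNA and 0.10 in the ratio, and 19 of 23 ratios were above 0, against 49.2% of all genes. None passed for the ratio, and 3 had an unadjusted p under 0.05 (Rars, Nars and Eprs), all higher (13%, against 6.21% of all genes). Without footprint knockout 1, 12 rose in footprints. Cars, for cysteine, was at 50.3, 42.1 and 45.2 CPM in B6N footprints and 71.8, 73.5 and 73.8 CPM in the knockout, and its RNA was 37.7, 36.8 and 38.7 CPM in B6N and 55.3, 55.0 and 57.8 CPM in the knockout. It rose by 0.67 and 0.57 on the log2 scale, and the ratio difference was 0.10 ± 0.11. Its RNA rise was lost without RNA B6N 1, RNA B6N 2 or RNA knockout 3. Rars, which charges arginine tRNAs and so the deleted one, was at 84.3, 76.4 and 89.5 CPM in B6N footprints and 123, 117 and 104 CPM in the knockout, with RNA at 46.3, 41.5 and 46.4 CPM and 46.9, 50.7 and 49.1 CPM. Both assays had every knockout library above B6N. Rars footprints rose by 0.46 ± 0.09 (adjusted p = 0.00589, edgeR), RNA differed by 0.13 ± 0.08, and the ratio by 0.33 ± 0.12 (unadjusted p = 0.0147, adjusted p = 0.217). Nars, for asparagine, rose by 0.51 ± 0.06 in footprints and differed by 0.29 ± 0.06 in RNA and 0.23 ± 0.09 in the ratio. Eprs, for glutamate and proline, rose by 0.44 in footprints, a rise that was lost without footprint B6N 2 or without footprint B6N 3. The fall of Hars, for histidine, was -0.30 in footprints and was lost in 5 of the 13 fits with libraries left out (without footprint B6N 1, B6N 2, knockout 1 or knockout 2, or knockout 1 in both assays).

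Among 28 genes of ribosome rescue and quality control, which release stalled ribosomes and destroy their products, 4 rose in footprints (14.3%) and 2 fell (7.14%). Over all genes 4.48% rose and 6.14% fell. None of the 28 changed in RNA. The list had a median ratio difference of 0.01. At an unadjusted p under 0.05, 2 members were higher (7.14%) and 4 lower (14.3%), against 6.21% and 8.66% of all genes. Without footprint knockout 1, 2 rose and 1 fell in footprints. Rnf10, a ubiquitin ligase that marks small subunit proteins of stalled ribosomes, was at 47.8, 54.7 and 53.8 CPM in B6N footprints and 36.0, 37.6 and 40.0 CPM in the knockout, while RNA was 252, 216 and 246 CPM and 256, 273 and 260 CPM. All knockout libraries lay below B6N in footprints and above it in RNA. Its ratio difference of -0.61 ± 0.11 (unadjusted p = 7.06e-05, adjusted p = 0.0589 in edgeR) passed in 6 of 24 alternative fits. Nemf, which recognises the stalled large subunit, went the other way, with footprints at 62.7, 75.5 and 74.7 CPM in B6N and 102, 103 and 90.3 CPM in the knockout and RNA at 100.3, 107 and 102 CPM and 103, 97.9 and 107 CPM. Nemf footprints rose by 0.47 ± 0.08 (adjusted p = 0.00473, edgeR) with an RNA difference of -0.01, and the ratio difference was 0.48 ± 0.12 (adjusted p = 0.102). Abce1, the factor that recycles ribosomes, rose by 0.32 in footprints. Vcp, which extracts the stalled product (0.30), and Ascc3, a helicase that splits collided ribosomes (0.51), also rose, and both rises were lost without footprint knockout 1. Zfp598, the ligase that senses collided ribosomes, had a ratio difference of -0.36. Gtpbp2, a rescue factor whose loss makes low n-Tr20 harmful to neurons, had footprints of 24.6, 22.5 and 25.3 CPM in B6N and 16.1, 15.2 and 22.9 CPM in the knockout, which overlapped. Its ratio difference was -0.53 ± 0.19 (unadjusted p = 0.0135, adjusted p = 0.213, edgeR).

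The list of 21 genes drawn up for regulatory upstream reading frames did not share the direction of Atf4. Oaz1 was counted in it, although the known control of that gene is not of this kind. Their median ratio difference was -0.12, with 7 of 21 above 0 (33.3%, against 49.2% of all genes). At an unadjusted p under 0.05 there were 3 higher (Atf4, Azin1 and Eprs) and 2 lower (Oaz1 and Cebpb). These are 14.3% and 9.52%, against 6.21% and 8.66% of all genes. The polyamine pathway supplied an opposed pair. Azin1, which blocks the antizyme that Oaz1 encodes, had footprints of 93.6, 92.2 and 96.4 CPM in B6N and 162, 126 and 114 CPM in the knockout, with RNA at 153, 166 and 155 CPM and 160, 161 and 165 CPM. Oaz1 had footprints of 27.6, 28.0 and 23.3 CPM in B6N and 18.9, 19.97 and 15.97 CPM in the knockout, with RNA at 124, 117 and 124 CPM and 114, 123 and 116 CPM. Footprints did not overlap between genotypes for either gene, and RNA overlapped for both. Azin1 rose by 0.51 ± 0.10 and Oaz1 fell by 0.52 in footprints (adjusted p = 0.00710 and 0.00638, edgeR). The ratio differences were 0.48 ± 0.14 for Azin1 and -0.47 ± 0.13 for Oaz1 (adjusted p = 0.141 and 0.127).

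Of 46 initiation and elongation factors, 6 rose (13%) and 4 fell (8.7%) in footprints, against 4.48% and 6.14% of all genes. None of the 46 changed in RNA, and the median ratio difference was 0.04. Eif5a, which helps ribosomes through difficult peptide bonds, fell by 0.37 in footprints and Eif5, the GTPase activator of eIF2, fell by 0.44, while Eif3a, the largest subunit of eIF3, rose by 0.41. The ratio differences were -0.42 ± 0.11 for Eif5a, -0.43 for Eif5 and 0.32 for Eif3a, all with an adjusted p of at least 0.107 (edgeR). Of 12 kinases, phosphatases and regulators of eIF2 alpha, 1 rose in footprints (8.33%, against 4.48% of all genes). It was Impact, an inhibitor of the kinase GCN2, by 0.27, a rise that passed in 3 of the 13 fits with libraries left out. The largest ratio difference there was that of Ppp1cc, a catalytic subunit of the eIF2 alpha phosphatase, at 0.30 ± 0.19. Of 43 mTORC1 pathway genes, 3 rose (6.98%) and 4 fell (9.3%) in footprints, not far from the 4.48% and 6.14% of all genes. The median ratio difference was -0.04. At an unadjusted p under 0.05 the ratio was higher for 2 (4.65%) and lower for 4 (9.3%), near the 6.21% and 8.66% of all genes. Castor1, the arginine sensor of the pathway, had a ratio difference of -0.96 ± 0.34 (adjusted p = 0.207, edgeR), and its footprint fall of 0.86 passed in 1 of the 13 fits with libraries left out.

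Of 82 ribosomal protein genes, 18 fell (22%) and 3 rose (3.66%) in footprints, against 6.14% and 4.48% of all genes. None changed in RNA and none passed for the ratio, which was above 0 for 23. The median log2 difference was -0.14 in footprints, 0.00 in RNA and -0.16 in the ratio. At an unadjusted p under 0.05 the ratio was lower for 19 (23.2%) and higher for 4 (4.88%), against 8.66% and 6.21% of all genes. Rps25, of the small subunit, was at 25.7, 37.7 and 36.7 CPM in B6N footprints and 10.4, 16.4 and 18.7 CPM in the knockout, with RNA at 126, 114 and 128 CPM and 117, 124 and 123 CPM. Rplp1, of the large subunit stalk, was at 65.2, 101 and 107 CPM in B6N footprints and 29.7, 40.1 and 49.5 CPM in the knockout. Footprints of both genes were lower in every knockout library. They fell by 1.18 and 1.21 on the log2 scale (adjusted p = 0.00348 and 0.00702, edgeR), and the ratio differences were -1.16 ± 0.24 and -1.30 ± 0.28 (adjusted p = 0.0795 and 0.0949). The median footprint level of the list against the B6N mean was -0.30 in knockout 1, -0.03 in knockout 2 and -0.13 in knockout 3, and -0.11, 0.06 and 0.05 in the B6N libraries. Without footprint knockout 1 the median ratio difference was -0.06, with 5 members falling and 2 rising in footprints. How reads shared by near-identical copies were counted is not given in the sources used here, and ribosomal protein genes have many such copies.

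Transcript length moved with the ratio over all genes. With genes split by transcript length into 5 equal groups, in the shortest group (51 to 1801 bases) the median ratio difference was -0.12, with 88 higher and 379 lower at an unadjusted p under 0.05, and in the longest group it was 0.08, with 333 higher and 187 lower. The shift was in footprints: the median level of the shortest group against the B6N mean was -0.19 in knockout 1, -0.09 in knockout 2 and -0.03 in knockout 3, against -0.03 to 0.02 in the RNA libraries and -0.02 to 0.01 in the B6N footprint libraries. The value of knockout 3 was thus within the range of the RNA libraries. Of the ribosomal protein genes, 72 of 82 were in the shortest group, and the other 2965 genes of that group had a median of -0.11. With the length trend of each library removed, a fit added after the data were seen, ribosomal protein genes had a median ratio difference of -0.02, with 12 higher and 11 lower, and 11 rose and 9 fell in footprints. The other mRNAs with a terminal oligopyrimidine start, which mTORC1 controls together with ribosomal protein mRNAs, had a median of 0.01 over 32 genes. In footprints 2 of them rose (6.25%, against 4.48% of all genes) and none fell. Vim, vimentin, had a ratio difference of 0.45.

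**Figure D3:**
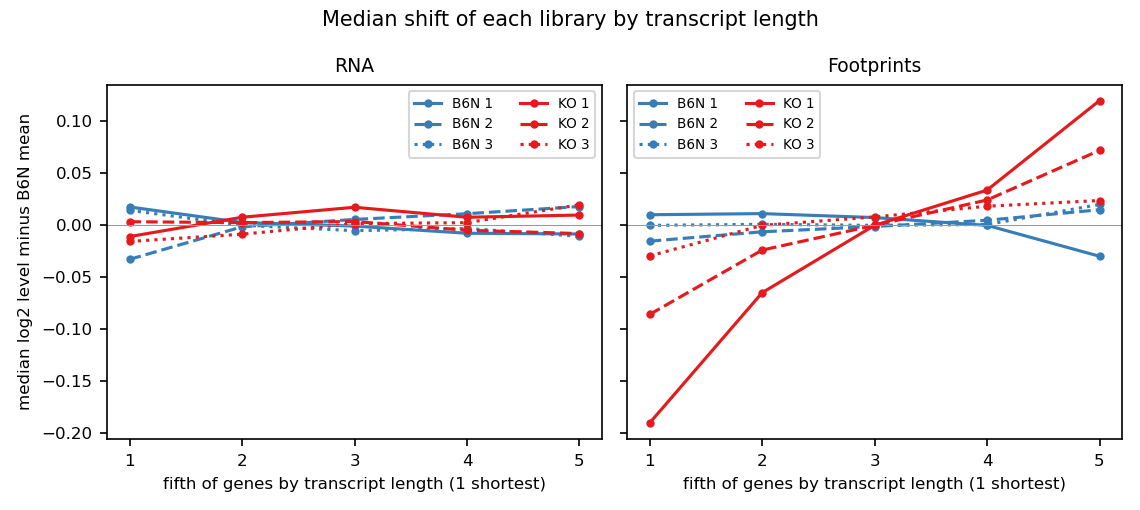
Median log2 level of each library against the B6N mean of its assay in 5 equal groups of genes ordered by transcript length, RNA on the left and footprints on the right. Footprint library knockout 1 runs from -0.19 in the shortest group to 0.12 in the longest, knockout 2 and 3 run the same way over a smaller range, and RNA libraries stay close to 0.

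Nuclear genes of oxidative phosphorylation, mostly short as well, had 17 of 76 members falling (22.4%) and 2 rising (2.63%) in footprints. Over all genes 6.14% fell and 4.48% rose. None of the 76 changed in RNA. The median ratio difference was -0.07. At an unadjusted p under 0.05, 16 were lower (21.1%) and 3 higher (3.95%), against 8.66% and 6.21% of all genes. The median turned to 0.07, with 7 lower and 11 higher, once the length trend was removed. Atp5g1, a subunit of the membrane ring of ATP synthase, was at 102, 107 and 123 CPM in B6N footprints and 75.1, 70.0 and 75.9 CPM in the knockout, with RNA at 125, 103 and 117 CPM and 110, 116 and 116 CPM. Its footprints fell by 0.58 (adjusted p = 0.00243, edgeR) and the ratio difference was -0.57 ± 0.12 (adjusted p = 0.0776). Atp5j2, another ATP synthase subunit, fell by 0.83 in footprints, with a ratio difference of -0.54 (adjusted p = 0.0862), and Cox8a, of cytochrome oxidase, fell by 1.04. Atp5b, the catalytic subunit of ATP synthase, rose by 0.29, a rise that was lost without footprint B6N 2, B6N 3, knockout 1 or knockout 2, or without knockout 1 in both assays. The 13 messages encoded in mitochondrial DNA, read by the organelle's own ribosomes, all had a ratio difference above 0, with a median of 0.25, and none had an unadjusted p under 0.05. The smallest p-values were those of mt-Nd4l, 0.96 ± 0.54, and mt-Co2, 1.19 ± 0.69. Without footprint knockout 1 that median was 0.67.

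The genes with the smallest p for the ratio in each direction all missed the threshold, at adjusted p of 0.0531 to 0.0622 in edgeR. With a lower ratio, Ost4, a small subunit of the oligosaccharyltransferase, was at 12.6, 15.5 and 17.4 CPM in B6N footprints and 4.48, 4.21 and 6.25 CPM in the knockout, while its RNA was 13.5, 13.1 and 13.7 CPM and 13.1, 12.4 and 13.2 CPM. Footprints fell by 1.62 ± 0.17 (adjusted p = 0.000293, edgeR) and RNA overlapped, and the ratio difference was -1.55 ± 0.22. Nudt3, a hydrolase of inositol polyphosphates, had a ratio difference of -1.17, Serf2 one of -0.97, Nsmf, a messenger from synapse to nucleus, one of -0.81, and Wdtc1 one of -0.72. Mt1, a metallothionein, was at 496, 536 and 605 CPM in B6N footprints and 343, 364 and 330 CPM in the knockout, with RNA at 130, 140 and 148 CPM and 131, 157 and 144 CPM. Its ratio difference was -0.71 ± 0.12, that of Gng2, a G protein gamma subunit, -0.62 and that of Wdr13 -0.57. All 8 genes fell in footprints, and none passed in RNA. For each of them the ratio difference stayed below 0 in all 24 alternative fits and passed in 6 or 7.

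With a higher ratio, Plxnd1, a semaphorin receptor, was at 14.97, 18.4 and 16.01 CPM in B6N footprints and 22.5, 23.4 and 25.9 CPM in the knockout, and at 36.3, 36.6 and 40.0 CPM in B6N RNA and 30.7, 22.4 and 25.9 CPM in knockout RNA. The knockout lay above B6N in footprints and below it in RNA. Its ratio difference was 1.05 ± 0.17. Fn1, fibronectin, had footprints of 67.0, 74.8 and 76.1 CPM in B6N and 138, 152 and 109 CPM in the knockout, and a ratio difference of 1.12 ± 0.19. Vsnl1, a neuronal calcium sensor, had footprints of 880, 822 and 836 CPM and 1053, 1020 and 1009 CPM, RNA of 326, 377.2 and 344 CPM and 294, 295 and 289 CPM, and a ratio difference of 0.53 ± 0.09. Pou2f1, a transcription factor, had a ratio difference of 1.47, Vwa1, an extracellular matrix protein, one of 0.68, and Slu7, a splicing factor, one of 0.54. Penk is given with the striatal markers. Rpe65, an enzyme of the retinal visual cycle, was near the limit of detection, with 0, 0 and 1 footprint counts in B6N and 24, 3 and 9 in the knockout, and 7, 15 and 8 RNA counts in B6N and 2, 1 and 4 in the knockout, and no fold is given for it. The other 7 genes rose in footprints, and none of the 8 passed in RNA. The RNA of Plxnd1 and of Vsnl1 still lay below B6N in every knockout library, and that difference is part of their ratio difference.

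Of 49 genes of the glutamate synapse, 10 fell (20.4%) and 3 rose (6.12%) in footprints, against 6.14% and 4.48% of all genes, and none changed in RNA or passed for the ratio. Calls over all genes were thus also more often lower. In the list the median ratio difference was -0.03, with 13 lower (26.5%) and 4 higher (8.16%) at an unadjusted p under 0.05, against 8.66% and 6.21% of all genes. Cnih2, an auxiliary subunit of AMPA receptors, was at 148, 156 and 188 CPM in B6N footprints and 81.4, 92.4 and 93.3 CPM in the knockout, with RNA at 410, 303 and 409 CPM and 351, 439 and 327 CPM. Footprints did not overlap and RNA did. Its ratio difference was -0.88 ± 0.19 (adjusted p = 0.0870, edgeR). Lrrtm1, a synaptic adhesion protein, had one of -0.38, and the scaffold Dlgap3, which fell by 0.58 in footprints, one of -0.45. The receptor subunits Gria2 and Gria3 and the scaffold Dlg1 rose in footprints, by 0.29, 0.32 and 0.32, and all these rises were lost without footprint knockout 1, after which none of the 49 rose and 5 fell. With the length trend removed the list had 11 falling and 2 rising, and its median ratio difference was -0.10. Of 63 ion channel genes, 10 fell (15.9%) and 2 rose (3.17%) in footprints, and without footprint knockout 1, 3 fell and none rose. Kcnip2, a subunit that modulates potassium channels, had a ratio difference of -0.56 (adjusted p = 0.122, edgeR). Of 45 genes of presynaptic release, 4 fell (8.89%) and 1 rose (2.22%) in footprints, against 6.14% and 4.48% of all genes. Syt11, a synaptotagmin, had a ratio difference of 0.28, and Cplx2, a complexin, one of -0.41, with a footprint fall of 0.41 that was lost without footprint B6N 1, footprint knockout 1 or knockout 1 in both assays.

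Of 23 genes of the GABA synapse, 1 (Gad2) fell in RNA and none rose, against 0.0329% and 0.0526% of all genes. In footprints 2 fell (8.7%, against 6.14% of all genes) and none rose. The median log2 difference was -0.12 in RNA, -0.01 in footprints and 0.12 in the ratio. Gad2, a GABA-synthesising enzyme, was at 220, 194 and 181 CPM in B6N RNA and 139, 125 and 141 CPM in knockout RNA, and at 293, 273 and 260 CPM in B6N footprints and 294, 240 and 255 CPM in knockout footprints. RNA did not overlap between the genotypes and footprints did. Gad2 RNA fell by 0.56 (adjusted p = 0.0251, edgeR), footprints differed by -0.06 ± 0.09, and the ratio by 0.49 ± 0.13 (unadjusted p = 0.00149, adjusted p = 0.113). The RNA call was lost in 5 of the 13 fits with libraries left out, namely without RNA B6N 1, RNA B6N 2 or any one knockout RNA library. Ndnf, a secreted factor of interneurons, had RNA of 45.4, 41.4 and 47.9 CPM in B6N and 25.8, 22.1 and 25.2 CPM in the knockout, which fell by 0.88 and was lost without any one B6N RNA library, RNA knockout 2 or RNA knockout 3. Its footprints differed by -0.25 ± 0.13 and overlapped, and its ratio by 0.63 ± 0.19 (adjusted p = 0.148). Col19a1, a collagen, and Garnl3 also fell in RNA, by 0.85 and 0.69, with footprints differing by -0.18 ± 0.17 and -0.28 ± 0.14. Those RNA calls passed in 7 and 3 of the 13 fits with libraries left out, and both were lost without any one RNA library. Gabbr2, a GABA-B receptor subunit, fell in footprints by 0.39, with a ratio difference of -0.24. Gad1, the other GABA-synthesising enzyme, had one of 0.30 ± 0.11. Of the 13 genes called in RNA, 9 were called in footprints with the same sign and none with the opposite sign, leaving Gad2, Ndnf, Col19a1 and Garnl3.

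Immediate early genes, which neurons switch on with activity, had 29 of 37 ratios above 0 (78.4%, against 49.2% of all genes). Their median ratio difference was 0.28. In footprints 6 rose (16.2%) and 2 fell (5.41%), against 4.48% and 6.14% of all genes, and none changed in RNA. Egr1 footprints were 102, 197 and 154 CPM in B6N and 296, 268 and 243 CPM in the knockout, with RNA at 120, 84.7 and 108 CPM and 127, 135 and 107 CPM. Footprints were higher in every knockout library and RNA overlapped. Egr1 rose by 0.84 in footprints and Klf2, also made in endothelium, by 1.28. Nrn1, a neurotrophic factor, fell by 0.42, with a ratio difference of -0.56 ± 0.14 (adjusted p = 0.105, edgeR). Rgs2, a regulator of G protein signalling, had one of 0.39. Without footprint knockout 1 the median ratio difference was 0.32, while 2 members rose and none fell, and the calls of Egr1 and Nrn1 were each lost there, as they were without footprint B6N 3, knockout 2 or knockout 1 in both assays. Of 37 axon and cytoskeleton genes, 29 ratios were above 0 (78.4%, against 49.2% of all genes), with a median of 0.17, and 3 rose in footprints (8.11%, against 4.48%), the spectrins Sptan1 (0.45) and Sptbn1 (0.65) and the linker Macf1 (0.64), of which Sptan1 alone still passed without footprint knockout 1. Their transcripts of 8018, 9107 and 23495 bases (Sptan1, Sptbn1, Macf1) were in the longest of the 5 length groups, where ratios were more often higher. With the length trend removed the list had 30 ratios above 0, a median of 0.15 and 4 members rising in footprints. Stmn4, a stathmin, had a ratio difference of 0.39 ± 0.10 (adjusted p = 0.102, edgeR). Of 24 heat shock and cytosolic chaperone genes 3 rose (12.5%) and 1 fell (4.17%) in footprints, against 4.48% and 6.14% of all genes. The gene that fell was Hspe1, the mitochondrial cochaperonin. It fell by 0.62, with a ratio difference of -0.76 ± 0.15 (adjusted p = 0.0589, edgeR). That of Hspb1, a small heat shock protein, was 0.67 ± 0.30. Of 23 chaperones of the endoplasmic reticulum and its unfolded protein response 1, Herpud1, rose in footprints (4.35%, against 4.48% of all genes). The median ratio difference was -0.07 and that of Syvn1, a ligase of the degradation pathway, was -0.32.

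**Figure D4:**
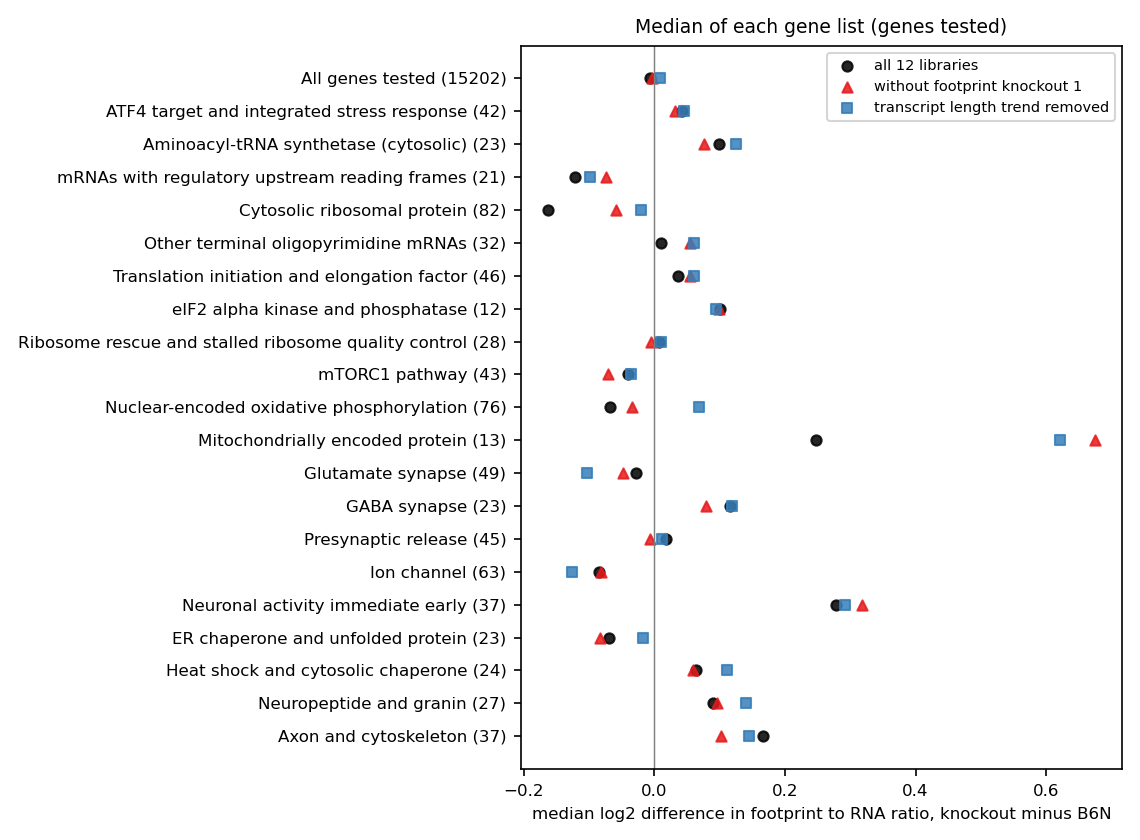
Median log2 difference in the footprint to RNA ratio for each gene list, with the number of genes tested, from all 12 libraries, without footprint knockout 1 and with the transcript length trend removed. Ribosomal protein genes move from -0.16 to -0.06 and -0.02, oxidative phosphorylation genes cross 0, and stress response genes stay between 0.03 and 0.05.

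Neuropeptide genes were divided, with 4 of 27 rising (14.8%) and 5 falling (18.5%) in footprints, against 4.48% and 6.14% of all genes. Those that rose were Penk, Tac1, Adcyap1 and Cort. Pcsk1n fell by 0.66, Scg5 by 0.33, Cck by 0.46, Pnoc by 0.80 and Sst by 0.55. In RNA 1 rose (Cort) and 1 fell (Scg5, by 0.41), against 0.0526% and 0.0329% of all genes. Penk, the enkephalin precursor, was at 46.0, 61.4 and 46.3 CPM in B6N footprints and 158, 85.7 and 163 CPM in the knockout, and at 30.6, 21.0 and 25.5 CPM in B6N RNA and 18.0, 21.1 and 17.5 CPM in knockout RNA. Footprints were higher in every knockout library while RNA overlapped. Penk footprints rose by 1.41 ± 0.23 (adjusted p = 0.00521, edgeR), RNA differed by -0.44 ± 0.22 and the ratio by 1.85 ± 0.32 (adjusted p = 0.0589). Penk and Tac1, the substance P precursor that rose by 1.45 in footprints, are also abundant in striatal neurons. Of 11 striatal markers, Penk among them, 4 rose (36.4%) and 1 fell (9.09%) in footprints, against 4.48% and 6.14% of all genes. None of them changed in RNA. Drd1, the D1 dopamine receptor, had footprints of 5.19, 5.09 and 2.58 CPM in B6N and 21.3, 8.94 and 13.8 CPM in the knockout. Its rise of 1.81 was lost without knockout 1 in both assays (adjusted p = 0.0561, edgeR). Rgs9 rose by 1.05, Pde10a by 0.68, and Gng7 fell by 1.06, a fall that was lost without footprint knockout 1. Summed striatal markers were 239 to 287 CPM in B6N footprints and 293 to 479 CPM in knockout footprints, against 432 to 504 CPM and 471 to 490 CPM in RNA. These sums include Penk itself, so its own footprint rise is part of their difference. Sums without Penk were not analysed here. The part of striatal tissue in the ratio of Penk was not tested. Cort, an interneuron peptide, rose by 1.03 in footprints and 1.53 in RNA, the latter being lost without RNA B6N 1 or RNA B6N 2.

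Markers of other cell types moved with the ratio as well. In bulk tissue, fewer cells of a type and less RNA per cell cannot be told apart, and a difference in tissue between RNA and footprint libraries enters the ratio. All 13 endothelial and mural markers had ratio differences above 0 (median 0.56), against 49.2% of all genes. At an unadjusted p under 0.05, 5 were higher (38.5%, against 6.21% of all genes). In footprints 2 rose (15.4%, against 4.48%). Summed footprints were 504 to 776 CPM in B6N and 763 to 882 CPM in the knockout, and summed RNA 487 to 501 and 429 to 525 CPM. Footprint library B6N 1, at 776 CPM, lay within the knockout range. Oligodendrocyte markers had a median ratio difference of 0.48, with 13 of 15 above 0 (86.7%, against 49.2% of all genes). In RNA their median difference was -0.38, with summed RNA of 6188 to 8641 CPM in B6N and 5231 to 6374 CPM in the knockout. Their median difference in footprints was 0.07. Mbp and Mobp fell in footprints (-0.64 and -0.58) and had ratio differences below 0 (-0.20 and -0.26). All 10 dentate granule cell markers were below 0 in the ratio (median -0.40), while 49.2% of all genes were above 0. Their summed RNA was 355, 635 and 651 CPM in B6N and 502, 814 and 644 CPM in the knockout. RNA library B6N 1 was thus the lowest, and the 10 markers share it. Microglia markers had 4 of 14 falling in footprints (28.6%, against 6.14% of all genes) and a median ratio difference of -0.13. Those falling were Cx3cr1 (-0.59) and the complement genes C1qa (-0.56), C1qb (-0.55) and C1qc (-0.49). Of these Cx3cr1 alone still fell without footprint knockout 1. Astrocyte markers had 5 of 14 falling (35.7%) and a median of -0.15. Of 16 interneuron markers 4 fell in footprints (25%) and 2 in RNA, against 6.14% and 0.0329% of all genes. Their medians were -0.14 in footprints and -0.31 in RNA, and the median ratio difference was 0.09. Summed choroid plexus markers, led by Ttr, were 7869 to 17090 CPM in B6N footprints and 11260 to 26270 CPM in knockout footprints, and 341 to 4608 CPM and 291 to 6799 CPM in RNA. No choroid plexus marker changed in either assay, and none of the 13 was at 0 in any group. Thalamic markers were at 436 CPM in RNA library B6N 2 and 137 to 174 CPM in the other RNA libraries. With the choroid plexus level as a covariate, a fit added after the data were seen, 13 stress genes and 13 synthetases rose in footprints, the median ratio difference of the stress list was 0.04, and 46 genes passed for the ratio, 8 higher and 38 lower. The part of the other tissues in the ratio was not tested.

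**Figure D5:**
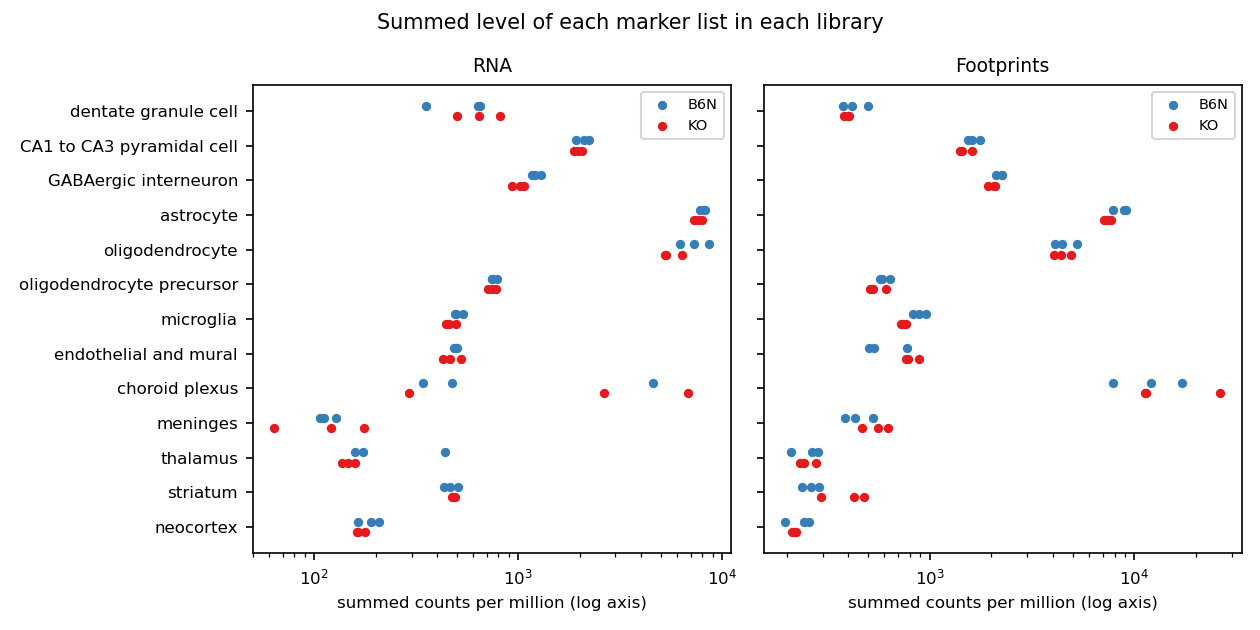
Summed CPM (log axis) of 13 cell type marker lists in each RNA library (left) and footprint library (right) of B6N and knockout (KO). Choroid plexus sums spread over more than the range of any other list in RNA. The striatal sums, which include Penk, lie above B6N in KO footprints and overlap B6N in RNA.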

How the data were processed

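Deposited whole-number counts per gene, raw and not normalized per the file headers and the values, were used from 12 hippocampus files; 22523 genes were in both RNA and footprint files, of which 21904 are protein coding. RNA was poly(A) selected with a kit that does not mark strand, so overlapping and antisense genes cannot be separated, per the labels' protocols. The build mm10 and the tools Bowtie2 2.2.3, featureCounts, HISAT2 2.1.0 and kallisto 0.42.4 are listed, with no roles, per the submitters' processing notes; how footprints were trimmed is not given in the sources used here. Symbols and transcript lengths (the longest coding transcript) came from the authors' transcript identifiers and deposited length column, in bases, which sits beside the forebrain counts and is of unit other. The AGA codon content planned for was not analysed here.

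Library sizes were TMM-scaled within each assay, genes kept by filterByExpr at a minimum count of 10 (15202 kept, 7321 left out), and 4 group coefficients fitted with edgeR 4.0.16 (robust quasi-likelihood F test, two-sided, R 4.3.3), p-values adjusted by Benjamini-Hochberg over these genes and calls at 0.05. CPM are on scaled library sizes; errors are SE for log2 differences. Median SE was 0.19 for the ratio, 0.14 for footprints and 0.13 for RNA, and the common biological coefficient of variation 13.3%. Fits were tested on simulated data. Alternatives used RLE scaling, all-gene library sizes, DESeq2 1.42.0, limma 3.58.1 voom, other filters (none, or a mean of at least 50 counts in each assay), replicate blocks and left-out libraries. No 2 libraries of a group agreed within counting error (lowest chi-square over degrees of freedom 4.42).

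The members and lists were chosen with earlier results of these data known. Named genes were Atf4, the 8 with the smallest p for the ratio in each direction, and the 2 smallest of each list described (marker lists are given by their sums and medians); other named genes, mainly those called in footprints or RNA, were chosen after their values were seen. Some results of these lists are not reported here.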

Additional observations from a re-analysis of the deposited data

How the results depend on the processing

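The number of genes called for the ratio, 0 in edgeR, was 486 with DESeq2, 2 with limma voom, 30 without a filter on low counts, 32 with a mean of at least 50 counts in each assay, 5 with a replicate block within genotype and 46 with the choroid plexus level as a covariate (chosen after seeing the data). It stayed at 0 with RLE scaling, all-gene library sizes, a fit that was not robust, a replicate block shared by all groups and the length trend removed. Leaving out libraries gave 0 to 277 calls for the ratio (277 without footprint B6N 1, 172 without footprint knockout 3, 3 without knockout 1 in both assays), 597 to 2247 for footprints (916 without footprint B6N 2, 597 without footprint B6N 3, 717 without footprint knockout 1, 1058 without footprint knockout 2, 644 without knockout 1 in both assays) and 2 to 14 for RNA (2 without RNA B6N 1 or RNA B6N 2, 6 without RNA B6N 3, 5 without RNA knockout 2, 4 without RNA knockout 3), or 21 without knockout 1 in both assays. For RNA, DESeq2 called 80 genes, voom 48 and the replicate block 7, against 13, and for footprints the block gave 1275. Same-numbered RNA and footprint libraries of a genotype deviated together with correlations of -0.09 to 0.124, so the numbers are not taken as pairs. Of the list members called, 68 of 176 in footprints and 2 of 13 in RNA passed with every library left out in turn. Single ratio differences that changed sign with a library left out were Aqp1 (-3.58 to 0.10) and Ttr (-3.84 to 0.51), above 0 without RNA knockout 3, and Slc7a3 (-0.22 to 0.37), below 0 without footprint B6N 1 (-0.22), footprint B6N 3 (-0.05), footprint knockout 1 (-0.01), footprint knockout 3 (-0.03), RNA B6N 1 (-0.04) or RNA knockout 2 (-0.13). With 3 libraries a group and a median SE of 0.19, small ratio differences could not pass; where a left-out library leaves 2, those are assumed to vary like the other groups.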
